A study of Mus musculus with 5 samples.

Results

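This account concerns 35 genes of 2 linked stress programs in 6DT1 cells, out of 19938 genes measured. The first 17 encode chaperones, folding enzymes and degradation factors of the endoplasmic reticulum (ER) together with the transcription factor XBP1. The other 18 are *Atf4*, its partners and stress effectors, and enzymes and transporters of amino acid supply. The members form a functional list, chosen with earlier results of these data known, and were looked up by gene symbol; each of the 35 had a probe set. Among several probe sets of a gene, that of highest mean level was kept. Of the members, *Dnajc3* had a second probe set with identical values and *Pdia4* had a second, dim one.

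6DT1 is a highly metastatic mouse mammary carcinoma cell line, and each of 5 stable or parental lines was measured on 1 Affymetrix Mouse Gene 1.0 ST array. The *Arid4b* knockdown cohort held lines H3 and H4, which carried lentiviral shRNA hairpins against *Arid4b* in the pLKO.1 vector. The control cohort held line H5, whose *Arid4b* hairpin left the protein at a normal level, the line with the scrambled hairpin in the same vector, and untransduced cells. All lines except the untransduced cells had been selected with puromycin, and the transduced lines were pooled clones. Relative to the scrambled line, ARID4B protein was given in the labels as 0.19 for H3, 0.15 for H4, 1.02 for H5 and 1.09 for untransduced cells. *Arid4b* mRNA was 6.88 in H3 and 7.35 in H4 on the log2 scale, below the control mean of 8.31 ± 0.06 (SD, n = 3 lines), a log2 fold change of -1.20 with an adjusted p of 0.217 from limma. All expression values here are log2 values normalized by the authors, a log2 fold change is the knockdown mean minus the control mean. Control values are listed in the order H5, scrambled, untransduced, and precision is limited by the 5 arrays. Nothing in the labels says that a line was cultured or arrayed more than once, so p-values reflect only how far the lines of a cohort differ, and that spread may be technical. A lower value can come from less RNA per cell or from fewer cells that express the gene among the pooled clones, and bulk RNA cannot tell these apart.

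When unfolded proteins accumulate in the ER, the sensors ATF6 and IRE1 raise the transcription of chaperones, IRE1 doing so by splicing the mRNA of *Xbp1*. The sensor PERK phosphorylates the initiation factor eIF2α, which slows translation in general and favours that of *Atf4*. The kinase GCN2 reaches the same step when amino acids are short, so that the ATF4 program, called the integrated stress response, can run without the ER program. ATF4 then activates genes of amino acid synthesis and uptake, and, through CHOP (*Ddit3*), genes that end in recovery or cell death. Splicing, phosphorylation and translation leave no direct trace in these arrays, which measured mRNA of whole genes.

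Many chaperone promoters carry the ER stress element, CCAAT and CCACG separated by 9 bases, which is bound by NF-Y and ATF6. RefSeq promoter windows (build GRCm38.p6, 250 bases before to 50 after the annotated start) were given for 32 of the 35 members, 15 of the ER genes and 17 of the ATF4 genes. The element was searched on both strands with no mismatch. It was found in 7 of the 15 ER genes and in none of the ATF4 genes, against 0.119% of all 32851 windows. The stretches around it are shown because most of the ER genes that were lower in the knockdown lines hold it. They run 5′ to 3′ along the gene's strand, with the element in capitals. In *Calr*, *Creld2* and the second match of *Hsp90b1* it lies on the opposite strand and reads from the CCACG complement to the CCAAT complement.
*Hspa5*, chr2:34772001-34772067, plus strand: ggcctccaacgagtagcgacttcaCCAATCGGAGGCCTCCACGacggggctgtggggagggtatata
*Pdia6*, chr12:17266467-17266533, plus strand: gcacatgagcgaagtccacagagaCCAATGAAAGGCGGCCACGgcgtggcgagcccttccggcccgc
*Creld2*, chr15:88819496-88819562, plus strand: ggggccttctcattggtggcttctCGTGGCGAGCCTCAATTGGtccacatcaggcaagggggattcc
*Dnajc3*, chr14:118937803-118937869, plus strand: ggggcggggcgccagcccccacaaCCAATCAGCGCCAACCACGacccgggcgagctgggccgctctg
*Calr*, chr8:84847051-84847117, minus strand: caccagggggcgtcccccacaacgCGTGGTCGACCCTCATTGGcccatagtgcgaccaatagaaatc
*Hsp90b1*, chr10:86705509-86705680, minus strand: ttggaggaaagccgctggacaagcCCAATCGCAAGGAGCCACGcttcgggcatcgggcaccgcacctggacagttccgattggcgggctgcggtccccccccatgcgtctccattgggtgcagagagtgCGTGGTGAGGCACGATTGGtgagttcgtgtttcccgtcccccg
*Canx*, chr11:50325776-50325842, minus strand: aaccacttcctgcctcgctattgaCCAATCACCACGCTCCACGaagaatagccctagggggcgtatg

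ATF4 binds, with C/EBP partners, a composite element whose core, TGATG and AA separated by 1 base, was searched in the same way. It was found in 5 of the 17 ATF4 genes and in 1 ER gene, *Herpud1*, against 3.97% of all windows. *Herpud1* also holds the shorter ER stress element II, ATTGG and CCACG separated by 1 base, which 0.0365% of all windows hold. The stretches below show this core, or its reverse complement, in capitals in the members that hold it before the start. They are given because these genes, unlike the chaperones above, had no common direction. The match in *Trib3* lies after the start and is not printed.
*Nupr1*, chr7:126625549-126625604, minus strand: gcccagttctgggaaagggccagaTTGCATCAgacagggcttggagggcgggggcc
*Chac1*, chr2:119351025-119351080, plus strand: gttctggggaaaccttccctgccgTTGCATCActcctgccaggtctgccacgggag
*Asns*, chr6:7693210-7693256, minus strand: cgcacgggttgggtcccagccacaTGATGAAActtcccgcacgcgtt
*Slc7a11*, chr3:50443629-50443703, minus strand: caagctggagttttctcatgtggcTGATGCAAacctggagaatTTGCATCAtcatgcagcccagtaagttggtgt
*Herpud1*, chr8:94386293-94386348, plus strand: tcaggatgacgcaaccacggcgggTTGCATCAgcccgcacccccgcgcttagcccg

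**Figure D1:**
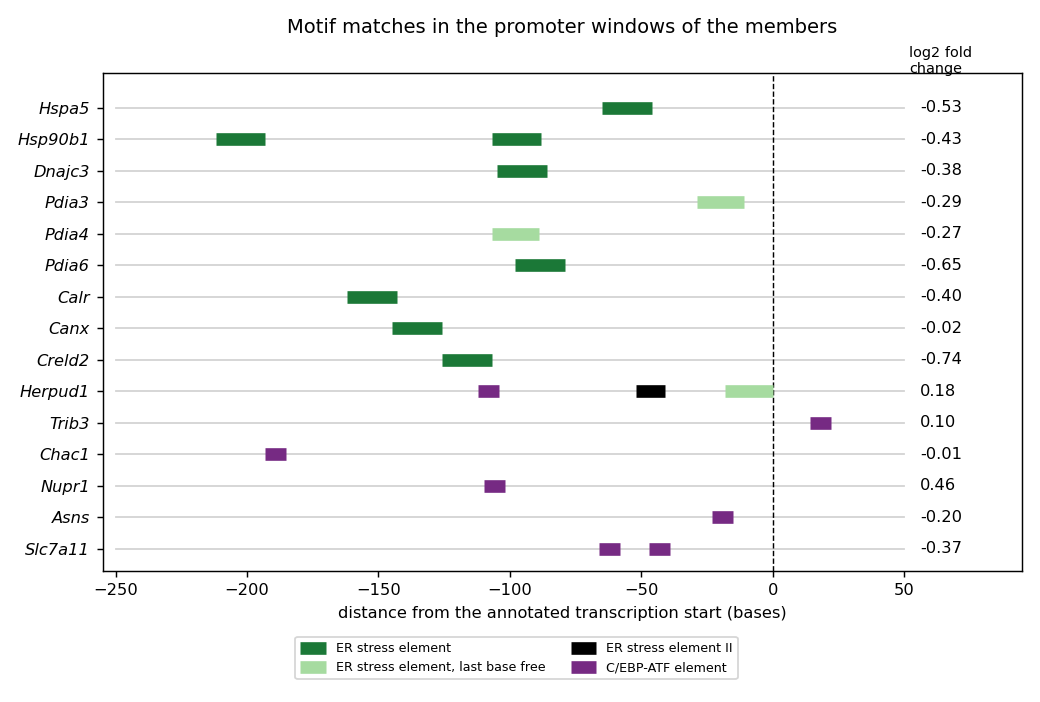
Matches of the ER stress element, the same element with its last base free, ER stress element II and the C/EBP-ATF core (coloured blocks) in the promoter windows of the members that hold any, by distance in bases from the annotated start (horizontal axis), with each gene's log2 fold change at the right. Exact matches of the ER stress element lie between 65 and 212 bases before the start. Of the 7 genes that hold one, 6 had a log2 fold change of -0.38 or below, the other being *Canx* at -0.02. The form with its last base free lies 29 bases before the start in *Pdia3* and 18 in *Herpud1*. ER stress element II lies 52 bases before the start in *Herpud1*.

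Most of the chaperone genes were lower with *Arid4b* knockdown, whereas few of the ATF4 genes passed the test in either direction. The threshold was that of the study, an unadjusted p below 0.05, here from limma. Of the 17 ER genes, 9 were lower by it and 0 were higher. Of the 18 ATF4 genes, 1 was lower and 2 were higher. Over all 19938 genes, 7.61% were lower and 4.34% were higher by the same rule. Genes with a high mean were called lower more often, 14.6% of the 1985 genes with a mean above 10 against 6.84% of the others. Of the 11 ER genes with a mean above 10, 5 were lower, and of the 6 with a lower mean, 4 were. Of the 6 ATF4 genes above 10, 1 was lower and 6 had a negative log2 fold change. Above 10, medians relative to the control mean in H3 and H4 were -0.52 and -0.12 for the ER genes. They were -0.16 and -0.15 for the ATF4 genes, so H4 showed no contrast there. At 10 or below they were -0.42 and -0.29 for the ER genes and 0.07 and 0.02 for the ATF4 genes. No member, and no gene at all, passed an adjusted p under 0.05 from limma with all lines and genes in the fit, in which 2383 genes passed unadjusted. With adjustment 2 genes passed in an unmoderated test, 4 in limma with the lowest genes left out and 1266 in limma without H4. The smallest adjusted p among the members was 0.251. The median log2 fold change was -0.35 for the ER genes and -0.049 for the ATF4 genes, against 0.033 for all genes. The ATF4 median turned to 0.0051 after a further quantile normalization, while that of the ER genes was -0.28.

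**Figure D2:**
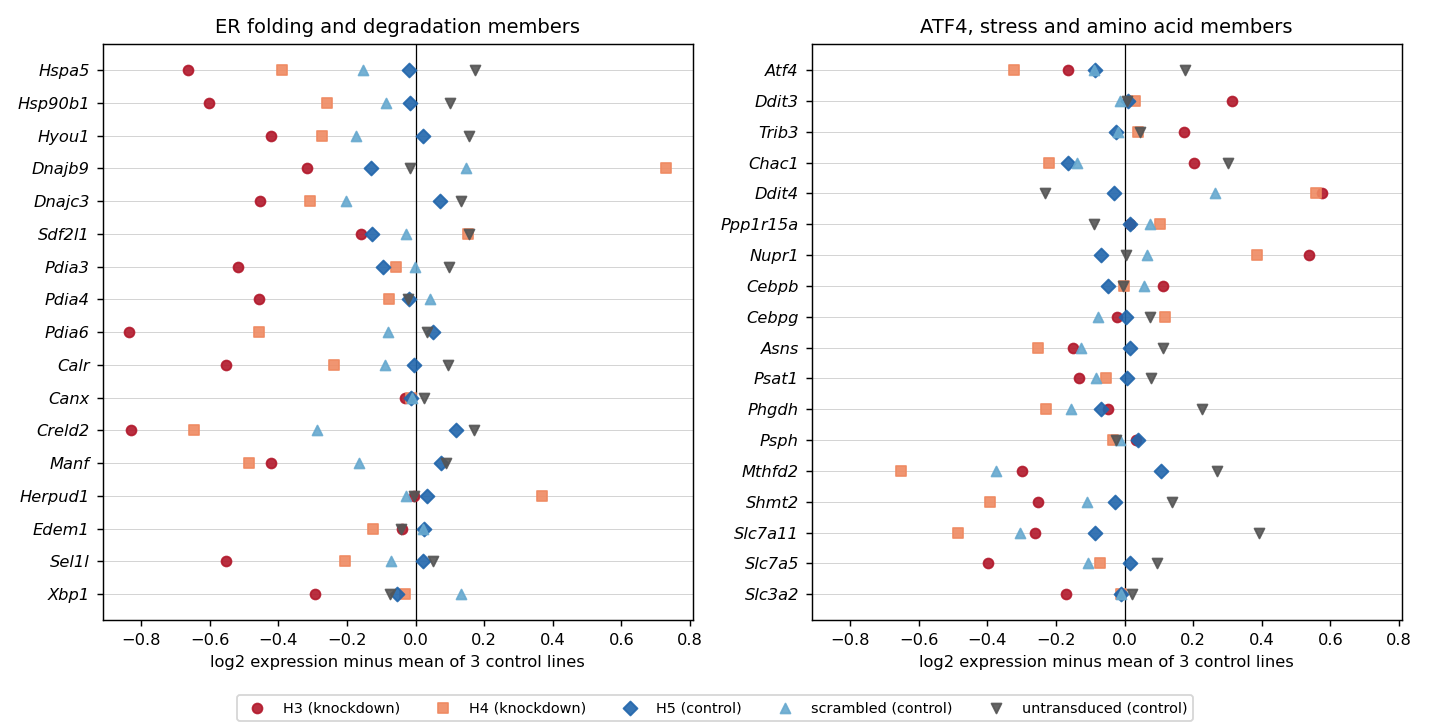
Log2 expression of each member in each of the 5 lines (points) minus the mean of the 3 control lines (horizontal axis), for the ER genes (left) and the ATF4 genes (right). For *Hspa5*, *Pdia6*, *Creld2* and *Manf* both knockdown lines (red and orange) lie to the left of all control lines, and for *Ddit4* and *Nupr1* to the right.

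The central chaperones of the ER lumen were lower in H3 and H4. *Hspa5*, which encodes BiP, the Hsp70 chaperone that also holds the stress sensors inactive, lay at 11.12 and 11.40 in H3 and H4 against control values of 11.77, 11.63 and 11.96. Its log2 fold change was -0.53 (standard error 0.14, adjusted p = 0.319 from limma), which is 69.4% of the control level. *Hsp90b1*, the ER form of Hsp90, lay at 10.997 and 11.34 in H3 and H4 and at 11.58, 11.51 and 11.70 in H5, scrambled and untransduced cells. Both genes had the order H3, H4, scrambled, H5, untransduced from low to high, without overlap of the cohorts. *Hyou1*, a large Hsp70 relative that exchanges the nucleotide of BiP, lay at 9.63 and 9.78 in H3 and H4 against 10.07, 9.88 and 10.21 in H5, scrambled and untransduced cells. *Dnajc3*, a J-domain co-chaperone of BiP that also inhibits PERK, lay at 9.58 and 9.73 against 10.11, 9.83 and 10.17. In both of these the scrambled line was the control nearest to H4, and the cohorts did not overlap. The log2 fold changes of *Hsp90b1*, *Hyou1* and *Dnajc3* were -0.43, -0.35 and -0.38.

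Among the other BiP co-factors, *Dnajb9* and *Sdf2l1* did not pass the threshold. *Dnajb9* (ERdj4), a J-domain protein that restrains IRE1, lay at 7.40 in H3, below every control line, and at 8.44 in H4, above every control line, with 7.58, 7.86 and 7.70 in H5, scrambled and untransduced cells. The 2 knockdown lines therefore differed by 1.05 in this gene, the widest gap between them among the members. *Sdf2l1*, a partner of J-domain proteins, lay between 10.11 and 10.42 in all lines and its cohorts overlapped.

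The disulphide isomerases all had negative log2 fold changes, and only *Pdia6* passed the threshold. *Pdia6*, which oxidizes and rearranges disulphides in client proteins and in IRE1, lay at 9.80 and 10.18 in H3 and H4 against control values of 10.69, 10.55 and 10.67. Its log2 fold change was -0.65 (standard error 0.13, adjusted p = 0.29 from limma), 63.9% of the control level. The gap between H4 and the lowest control line was wider than the spread of the control lines. *Pdia3*, the partner of calreticulin and calnexin, lay at 10.95 in H3 but at 11.41 in H4, inside the control range of 11.38 to 11.57. *Pdia4* lay at 11.29 and 11.66 in H3 and H4 against 11.72 to 11.78 in the control lines. Neither passed, with log2 fold changes of -0.29 (95% interval -0.70 to 0.12) and -0.27 (95% interval -0.59 to 0.06).

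Of the lectin chaperones, which hold glycoproteins until they are folded, *Calr* was lower and *Canx* did not pass. *Calr*, the soluble calreticulin, lay at 11.06 and 11.38 in H3 and H4 against 11.61, 11.53 and 11.71 in H5, scrambled and untransduced cells, a log2 fold change of -0.40 (standard error 0.12). *Canx*, its membrane-bound relative calnexin, lay between 12.12 and 12.17 in all 5 lines. Its log2 fold change was -0.02 with a 95% interval from -0.13 to 0.08, the narrowest interval of the 35 members. Both promoters hold the ER stress element shown above.

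*Creld2* and *Manf*, small proteins that are induced by ER stress and partly secreted, were lower as well. *Creld2* lay at 8.92 and 9.10 in H3 and H4 against control values of 9.87, 9.46 and 9.92. Its log2 fold change, -0.74 (standard error 0.17, adjusted p = 0.294 from limma), was the lowest of all members and corresponds to 59.9% of the control level. *Manf* lay at 8.02 and 7.96 against 8.52, 8.28 and 8.53, with a log2 fold change of -0.45 (standard error 0.10). It was the only one of the 9 lower ER genes in which H4 was below H3.

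Of the 3 genes of ER-associated degradation, which returns misfolded proteins to the cytosol, and *Xbp1*, 1 was lower, and the median log2 fold change of the 4 was -0.12. *Sel1l*, the adaptor of the HRD1 ubiquitin ligase, lay at 10.07 and 10.42 in H3 and H4 against 10.64, 10.55 and 10.68 in H5, scrambled and untransduced cells, a log2 fold change of -0.38 (standard error 0.12). *Edem1*, which passes mannose-trimmed glycoproteins to degradation, had a log2 fold change of -0.08 (95% interval -0.22 to 0.05). *Herpud1*, a stress-induced factor of the same ligase, was at 9.17 in H3, in the control range of 9.15 to 9.21, and at 9.55 in H4, above it. *Xbp1*, whose total mRNA the array measured without telling spliced from unspliced, lay at 10.34 and 10.61 in H3 and H4 against 10.58, 10.77 and 10.56. Its cohorts overlapped, and the log2 fold change was -0.16 (95% interval -0.46 to 0.13).

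Both knockdown lines lay below all 3 control lines in 10 of the 17 ER genes and above them in none, whereas 13.5% of all genes lay below and 13.9% above. Among genes with a mean above 10, 29.3% lay below, as did 6 of the 11 ER genes of that range. In a further quantile normalization 9 of the 17 lay below and 1 above, against 15.05% and 18.1% of all genes. The genes that did not separate were *Dnajb9*, *Sdf2l1*, *Pdia3*, *Canx*, *Herpud1*, *Edem1* and *Xbp1*. The tenth gene below, *Pdia4*, missed the threshold of the fit.

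The count of 9 lower ER genes rested on particular lines. It was 2 without H3 (*Pdia6* and *Manf*), 4 without H5 or without untransduced cells, and 8 without H4 or without the scrambled line. The share of all genes called lower also moved, to 9.06% without H3, 3.89% without H5, 5.07% without untransduced cells, 9.96% without H4 and 8.0% without the scrambled line. Without H3 the ER count was thus smaller while the share of all genes was larger. The 4 genes that passed without H5 and without untransduced cells were *Hspa5*, *Pdia6*, *Creld2* and *Manf* in both cases, and an unmoderated equal-variance test called the same 4. *Pdia6* passed in all 13 alternatives, and *Hspa5*, *Creld2* and *Manf* each in 12 of them. *Hspa5* and *Creld2* lost the call without H3, with unadjusted p = 0.104 and 0.0852 from limma, and *Manf* lost it without H4, with 0.0638. All 9 genes kept a negative log2 fold change in all 13 alternatives.

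**Figure D3:**
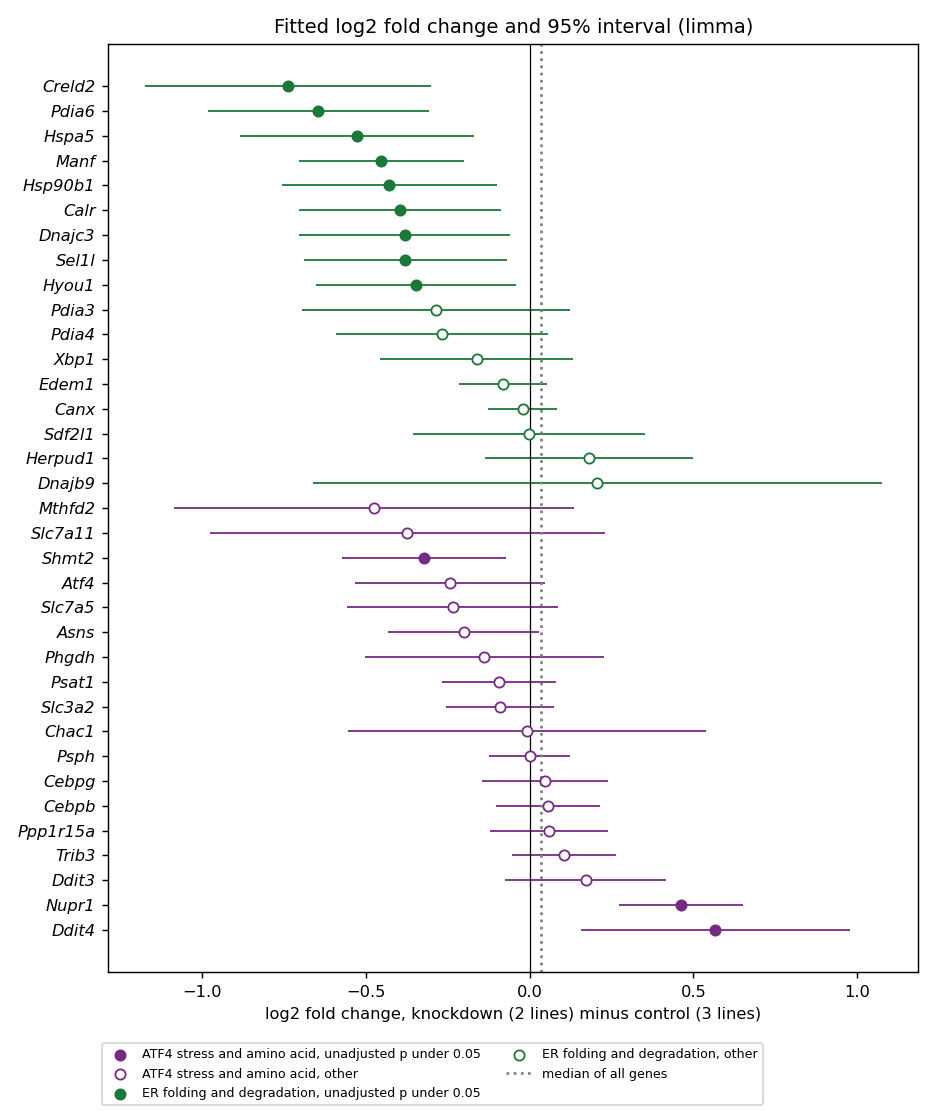
Log2 fold change of each member, knockdown lines (n = 2) minus control lines (n = 3), with its 95% interval from limma (horizontal axis); filled points passed an unadjusted p under 0.05, and the dotted line is the median of all genes. The ER genes (green) reach from -0.74 for *Creld2* to 0.21 for *Dnajb9*, and the ATF4 genes (purple) from -0.48 for *Mthfd2* to 0.57 for *Ddit4*.

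The regulators of the ATF4 branch showed no common direction. *Atf4* itself, the transcription factor at its head, lay at 8.38 and 8.22 in H3 and H4 against control values of 8.46, 8.45 and 8.72. The lines did not overlap, but the log2 fold change of -0.24 (95% interval -0.53 to 0.05) did not pass, and after quantile normalization the cohorts of *Atf4* overlapped. *Ddit3*, which encodes the pro-apoptotic factor CHOP, lay at 6.71 and 6.43 in H3 and H4 against 6.38 to 6.40 in the control lines. Both knockdown lines were above the controls, H4 narrowly, and the log2 fold change of 0.17 (95% interval -0.07 to 0.42) did not pass. *Cebpb* and *Cebpg*, which encode partners of ATF4 and CHOP, had log2 fold changes of 0.06 and 0.05 with overlapping cohorts.

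The stress effectors included the 2 members that were higher. *Ddit4* (REDD1), an inhibitor of mTORC1 that is also known to respond to p53, hypoxia and glucocorticoids, lay at 9.94 and 9.92 in H3 and H4 against control values of 9.33, 9.63 and 9.13. Its log2 fold change was 0.57 (standard error 0.16, adjusted p = 0.335 from limma), 148% of the control level. The knockdown lines nearly coincided, while the control lines spanned more than the distance from the scrambled line to H4. *Nupr1*, a small stress-induced chromatin protein, lay at 9.37 and 9.22 in H3 and H4 against 8.77, 8.90 and 8.84, and its log2 fold change was 0.46 (adjusted p = 0.251 from limma, standard error 0.07). *Nupr1* passed in all 13 alternatives, and *Ddit4* in 8 of them. *Ddit4* lost the call without H3, H4 or H5, with unadjusted p = 0.116, 0.108 and 0.0593 from limma.

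The effectors most often read as marks of an active ATF4 and CHOP response did not pass. *Trib3*, a pseudokinase that restrains ATF4, had a log2 fold change of 0.10 (95% interval -0.05 to 0.26). *Chac1*, which degrades glutathione, lay at 8.43 and 8.003 in H3 and H4, with control values of 8.06, 8.09 and 8.53. H3 and the untransduced line were high in this gene and the other 3 were low, so the cohorts crossed. *Ppp1r15a* (GADD34), the phosphatase subunit that reverses eIF2α phosphorylation, had a log2 fold change of 0.06. Over the 9 regulators and effectors the median log2 fold change was 0.058.

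In the amino acid group all 9 log2 fold changes were negative, with a median of -0.20, and 1 of 9 genes passed. The smallest in size was -0.00042, in *Psph*. Of all 19938 genes 7725 were negative, and of the 1985 with a mean above 10, 1272 were. By the threshold 7.61% of all genes were lower, and 14.6% of those above 10. *Shmt2*, the mitochondrial serine hydroxymethyltransferase that feeds one-carbon units, lay at 10.90 and 10.76 in H3 and H4 against control values of 11.13, 11.05 and 11.30. Its log2 fold change was -0.32 (standard error 0.09, adjusted p = 0.348 from limma), and it passed in 8 of 13 alternatives. It lost the call without H3, H4 or H5, with unadjusted p = 0.0565, 0.141 and 0.0576 from limma. *Mthfd2*, the next enzyme of that pathway, lay at 9.72 and 9.37 in H3 and H4 against 10.13, 9.65 and 10.29. The scrambled line lay below H3 here, and the log2 fold change of -0.48 had a 95% interval from -1.09 to 0.14. *Asns*, asparagine synthetase, lay at 11.95 and 11.85 in H3 and H4 against 12.12, 11.97 and 12.21, a log2 fold change of -0.20 (95% interval -0.43 to 0.03). H3 and the scrambled line differed by little in *Asns*.

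The enzymes of serine synthesis did not pass. *Phgdh*, *Psat1* and *Psph*, which act in that order, had log2 fold changes of -0.14, -0.09 and -0.00042. Of the transporters, *Slc7a11*, the cystine antiporter, had a log2 fold change of -0.37 with a 95% interval from -0.98 to 0.23. *Slc7a5* and *Slc3a2*, which form the large neutral amino acid transporter together, had -0.24 and -0.09, with overlapping cohorts. In the ATF4 genes as a whole both knockdown lines lay below all control lines in 3 (*Atf4*, *Asns* and *Shmt2*) and above them in 3 (*Ddit4*, *Nupr1* and *Ddit3*). Each count is 16.7% of the 18 genes, against 13.5% below and 13.9% above over all genes. After quantile normalization the 2 counts were 1 and 4, against 15.05% and 18.1% of all genes.

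The 2 programs can be set against each other within each line. The median of the 13 chaperones and folding enzymes minus that of the 9 ATF4 regulators and effectors, each relative to the control mean, was -0.63 in H3 and -0.29 in H4. The control lines gave 0.02, -0.07 and 0.09. After quantile normalization H3 and H4 gave -0.57 and -0.29, and the control lines 0.06, -0.07 and 0.04. This contrast leaves out the 9 amino acid genes. With all 17 ER genes against all 18 ATF4 genes it was smaller, -0.42 in H3 and -0.16 in H4. The control lines then gave 0.014, 0.0084 and 0.014. The amino acid genes alone had medians of -0.17 in H3 and -0.23 in H4. Those of the chaperones and folding enzymes were -0.46 and -0.26, so in H4 these 2 groups lay close together. No test was made of these differences, since the genes were chosen with earlier results known.

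**Figure D4:**
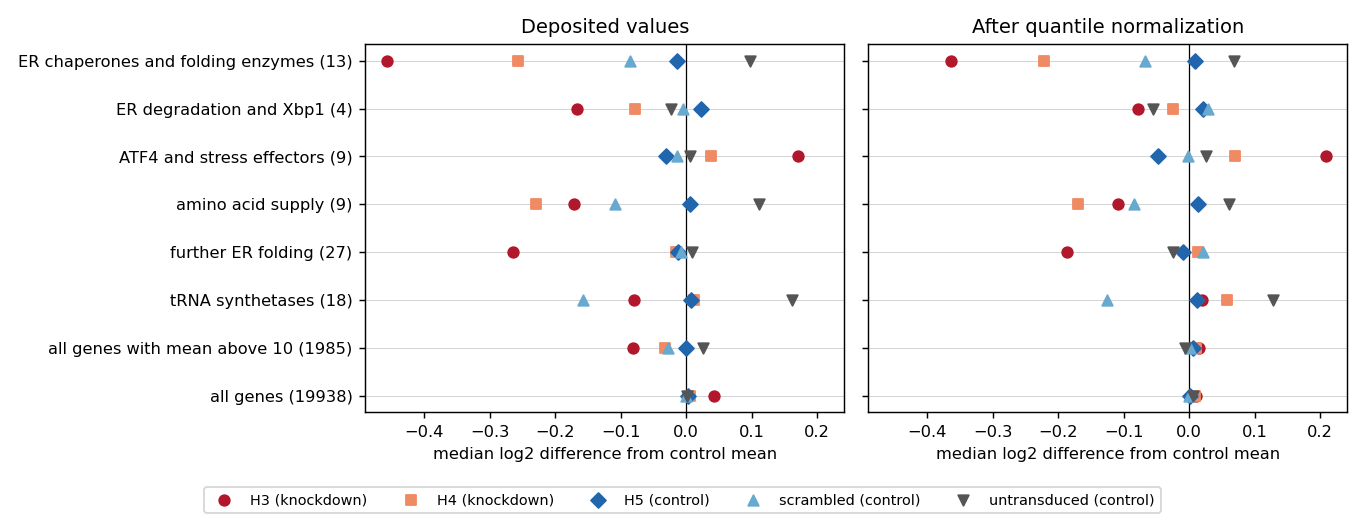
Median log2 difference of each gene group from the mean of the 3 control lines (horizontal axis) in each of the 5 lines (points), with the number of genes in brackets, for the deposited values (left) and after a further quantile normalization (right). For the ER chaperones H3 lies at -0.46 and H4 at -0.26 in the deposited values, left of all control lines, and for the ATF4 regulators and effectors at 0.17 and 0.04.

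H3 had the lower ER values of the 2 knockdown lines. H3 was below H4 in 15 of the 17 ER genes, against 36.7% of all genes, and in 5 of the 18 ATF4 genes. H3 alone lay below all control lines in 15 of the 17 ER genes (26.6% of all genes), and H4 alone in 11 (27.7% of all genes). For genes with a mean above 10 these shares were 49.0% and 39.6%, and 10 and 7 of the 11 ER genes of that range. Values on the H3 array were less spread than on the others, with an SD over genes of 2.03 against 2.10 to 2.13, and genes with a mean above 10 had a median of -0.08 in H3 relative to the control mean. Among these 1985 genes H3 was below H4 in 59.8%. After quantile normalization H3 was below H4 in 14 of the 17 ER genes and in 48.2% of all genes. The part of the H3 array in the difference between the lines was not tested beyond this, and each line was arrayed once.

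The control lines also differed among themselves, in the members and in other genes of high mean. Untransduced cells, the line that had not seen puromycin, were above both H5 and the scrambled line in 11 of the 17 ER genes and 12 of the 18 ATF4 genes, against 31.8% of all genes. The scrambled line was the lowest of the 3 in 10 of each group, against 34.2% of all genes. The difference between untransduced cells and the mean of H5 and scrambled was 0.59 in *Slc7a11*, 0.45 in *Chac1*, 0.40 in *Mthfd2*, 0.34 in *Phgdh* and 0.26 in both *Hspa5* and *Atf4*, and -0.35 in *Ddit4*. In *Slc7a11*, *Chac1*, *Phgdh* and *Atf4* it was larger in size than the difference between the cohorts, and in *Mthfd2*, *Hspa5* and *Ddit4* it was smaller. For genes with a mean above 10 the corresponding shares over all genes were 49.9% and 48.1%, closer to those of the members. In that range the counts were 7 and 5 of the 11 ER genes, and 6 and 5 of the 6 ATF4 genes. After quantile normalization untransduced cells were the highest control in 9 of the 17 ER genes and 12 of the 18 ATF4 genes, against 41.3% of all genes. The scrambled line was then the lowest in 9 of each group, against 36.7% of all genes. Above a mean of 10 these counts were 5 and 5 of the 11 ER genes and 5 and 5 of the 6 ATF4 genes. The shares of all genes of that range were 39.2% and 36.6%. Selection and the lack of a vector cannot be told apart in the single untransduced line.

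Further genes of the pathway were taken from lists of textbook members, which were also written with earlier results known. By the same threshold 7.61% of all genes were lower and 4.34% higher, and 14.6% of those with a mean above 10 were lower. Among 27 other ER folding and quality control genes, 7 were lower and 0 higher by it. Among them *Prdx4*, the ER peroxiredoxin, had a log2 fold change of -0.74, *Ero1b*, an oxidase that recharges the isomerases, one of -0.54, *Dnajb11*, a BiP co-chaperone, one of -0.53, and *Uggt1*, the glycoprotein folding sensor, one of -0.39. *Prdx4* lay at 7.18 and 7.95 in H3 and H4 against 8.24 to 8.39 in the control lines, so that H3 lay far below H4. The median of the 27 genes was -0.26 in H3 and -0.02 in H4. Of 18 measured degradation genes 2 were lower, *Derl2* (-0.39), a channel component, and *Ufd1* (-0.34), a cofactor of the p97 ATPase, and *Herpud2* (0.22) was higher. The sensors did not move as a group, with 1 of 13 lower, *Atf6b* at -0.28. *Atf6*, *Ern1* (IRE1) and *Eif2ak3* (PERK) did not pass, at -0.02, -0.19 and -0.15.

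On the ATF4 side 4 of 19 further genes of amino acid and one-carbon supply were lower and 0 were higher. They were *Mthfd1l* (-0.54), *Mthfd1* (-0.49) and *Shmt1* (-0.27), which encode folate enzymes beside *Shmt2*, and *Slc1a5* (-0.53), a glutamine transporter. Of 18 other targets of ATF4 and CHOP none was lower and 2 were higher. *Sesn2*, sestrin 2, an inhibitor of mTORC1 that p53 also induces, lay at 9.19 and 8.996 in H3 and H4 against control values of 8.06, 8.001 and 8.22, and its log2 fold change was 0.999 (standard error 0.10, adjusted p = 0.173 from limma). It exceeded every member in size. *Bbc3* (PUMA), a death gene shared with p53, had 0.28. Together 14 of 112 further genes (12.5%) were lower and 3 (2.68%) higher, against 7.61% and 4.34% of all genes. Among genes with a mean above 10, 14.6% were lower. *Ero1a* stands in both the folding and the stress list. The lower count was 8 without H5 and without untransduced cells, against 3.89% and 5.07% of all genes. The higher count was 2 in both fits, against 2.05% and 2.55% of all genes.

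The tRNA synthetases, a large group of ATF4 targets, did not pass between the cohorts. Of 18 measured cytosolic synthetase genes none was lower and none was higher, and both knockdown lines lay beyond the controls in none. Over all genes 7.61% were lower and 4.34% higher, and 13.5% lay below all controls and 13.9% above. With a mean above 10, 14.6% were lower and 5.49% higher, and 29.3% lay below and 11.9% above. After quantile normalization both lay above the controls in 5 of 18, against 18.1% of all genes. The same genes differed among the control lines. Untransduced cells were the highest control in 15 of 18, and the scrambled line was the lowest in 17 of 18. The shares were 31.8% and 34.2% of all genes, and 49.9% and 48.1% of those with a mean above 10. The median difference between untransduced cells and the mean of the others was 0.24. For the control lines the counts after quantile normalization were 14 and 16 of 18, against 41.3% and 36.7% of all genes.

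The ER stress element can be set beside the fold changes as a description. Among the 15 ER members with a promoter window, 6 of the 7 with the element were lower and 1 of the 8 without it, *Sel1l*. Of 14 measured genes outside the list whose windows hold the element 1 was lower, *Ero1b*, and 0 were higher, with a median log2 fold change of -0.0036. With the last base of the element left free, *Pdia3*, *Pdia4* and *Herpud1* matched as well, together with 0.365% of all windows. Of the 10 ER members with a match of this form 6 were lower, and of the 5 without it 1 was. Of 61 measured genes outside the list with this form, 4 were lower and 3 higher, with a median of 0.040. *Hyou1* and *Manf*, both lower, and *Slc7a5* had no window here. These matches describe letters in a window and not binding.

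Of the keratin genes of luminal epithelium, *Krt8* lay between 11.81 and 12.26 and *Krt18* between 11.57 and 11.71 over the 5 lines. *Krt19*, another of them, had a lower level than *Krt8* and *Krt18*, between 7.26 and 8.35. *Cldn3*, *Cldn4*, *Cldn7* and *Esrp1*, also on the epithelial list, lay between 5.12 and 7.73. *Epcam*, at 5.61 in 4 lines and 5.75 in H3, and *Cdh1*, at 6.05 to 6.16, varied little, and whether they were above background was not measured. None of 9 epithelial and none of 9 fibroblast and endothelial markers passed the threshold, against 7.61% lower and 4.34% higher over all genes. Of 6 macrophage and leukocyte markers 2 were higher, *Cd68*, a lysosomal protein, at 0.95 and *Csf1r* at 0.20, while the defining *Ptprc* stayed between 4.98 and 5.15. Relative to the control mean the median of the leukocyte markers was 0.18 in H3 and 0.07 in H4. That of the fibroblast and endothelial markers was 0.23 and 0.04, and that of the epithelial markers 0.10 and -0.04. After quantile normalization the H3 medians were smaller. The H3 and H4 medians were then 0.05 and 0.07 for leukocyte, 0.09 and 0.05 for fibroblast and endothelial, and 0.003 and -0.05 for epithelial markers. The part of these markers in the ER and ATF4 values was not tested.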

How the data were processed

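Total RNA of 5 lines was arrayed once each on Affymetrix Mouse Gene 1.0 ST arrays. The authors normalized the arrays in Partek Genomics Suite, with RMA named in the submitters' processing notes, and deposited log2 expression values of 35556 probe sets; no version of either tool was found in the labels or methods. RMA pulls arrays towards one distribution, so that a shift shared by most genes may show only in part. The deposited arrays were not fully alike. H3 had a probe set median of 6.35, against 6.24 to 6.25 in the other lines. It lay above all 3 control lines in 9350 of the 19938 genes and below them in 5302. The platform annotation gave 1 symbol for 21789 probe sets, several for 1621 and none here for 12146. Symbols were updated through the gene ID for 21698 of them (RefSeq, GRCm38.p6), which left 19938 genes.

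Cohorts, taken from the labelled ARID4B level, were set against each other by moderated linear models (limma 3.58.1, R 4.3.3; prior degrees of freedom 1.58 beside 3 residual). Adjustment was by Benjamini-Hochberg across the 19938 genes. The step was tested on simulated data. Values by line, controls in places as a mean or range, were given for members with separate cohorts and an unadjusted p under 0.05. They were also given for *Arid4b*, *Atf4*, *Ddit3*, *Xbp1*, *Hspa5* and *Asns*. Of each further list up to 4 genes past that threshold were named, most by log2 fold change alone. Values of other genes were given after they had been seen. Of 119 further pathway genes listed, 112 were measured. The members and lists were chosen with earlier results of these data known. Promoter windows came from RefSeq. Alternatives were an unmoderated test, trend and robust options, array medians subtracted, quantile normalization, the lowest 1 in 3 genes left out, averaged probe sets, array weights, puromycin as a covariate and each line left out. Figures were drawn with matplotlib 3.10.9.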

Additional observations from a re-analysis of the deposited data

How the results depend on the processing

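With an unmoderated equal-variance test 4 members were lower and 1 was higher (ER genes 4 and 0, ATF4 genes 0 and 1), and 7 further pathway genes were lower. With puromycin selection as a covariate, which by its construction gives the fit without untransduced cells, 5 members, 4 ER genes and 8 further genes were lower. Array weights gave 1 higher member, 0 lower and 1 higher ATF4 genes and 9 lower further genes. Quantile normalization gave 4 higher members, 1 of them an ER gene (*Herpud1*), 6 higher further genes, and an ATF4 median of 0.0051 in place of -0.049. With array medians subtracted 3 ATF4 genes were lower. Leaving out each line gave 2 to 11 lower and 1 to 3 higher members. Lower ER genes then numbered 2 to 8 and higher ones 0 to 2, and lower and higher ATF4 genes 0 to 3 and 1 to 3. Lower and higher further genes numbered 8 to 28 and 2 to 13. Over all genes the lower share ran from 3.89% to 9.96% and the higher share from 2.05% to 24.6%. The ER median ran from -0.45 without H4 to -0.21 without H3, and the ATF4 median from -0.091 to -0.020. *Dnajb9* passed at 0.73 without H3. The cause of these changes was not tested. With a single knockdown line remaining, its variance was taken from the control cohort. Trend and robust options, averaged probe sets and the low-value filter changed no count of members. No paired analysis was possible because the labels give no replicate numbers that the cohorts share.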
